A study of Mus musculus with 12 samples.

Results

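The intragenic sites that HIF1A and ARNT shared in oxygen-poor N1E115 cells numbered 1700. They were chosen from chromatin immunoprecipitation sequencing (ChIP-seq) peak lists in 4 steps. A reproducible region was a stretch of merged peaks of 1 antibody at 1 oxygen level that held a peak from both replicate lists. A HIF1A region found at 4% O2 was kept where it overlapped an ARNT region found at 4% O2 by at least 1 bp and overlapped no reproducible ARNT region found at 20% O2. Its centre also had to lie inside a protein-coding gene and more than 1 kb from either end of every annotated gene. The HIF1A lists at 4% O2 gave 12586 reproducible regions, so the sites made up 13.5% of them. Because HIF1A and ARNT at 4% O2 and ARNT at 20% O2 chose the sites, values from those lists are given here as a description and support nothing.

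N1E115 is a mouse neuroblastoma line, described in the labels as NOS1+, that is, positive for the neuronal nitric oxide synthase. Cells were kept for 3 days at 4% O2 or at 20% O2, in both cases with 5% CO2 and at ambient pressure, and 8 ChIP samples were made, 2 for each of anti-HIF1A and anti-ARNT at each oxygen level. The other 4 samples were inputs. One cell line was used, nothing in the labels tells whether a replicate was its own culture, and peak lists measure no expression, so the identity of the cells could not be checked from markers.

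HIF-1 is a heterodimer of the oxygen-regulated subunit HIF1A and its constitutive partner ARNT. When oxygen is plentiful, prolyl hydroxylases of the EGLN family mark HIF1A for degradation by way of the VHL ubiquitin ligase. When oxygen is short, HIF1A accumulates, joins ARNT and binds hypoxia response elements, whose core reads ACGTG or GCGTG. Glycolytic enzymes, mitophagy receptors, collagen-modifying enzymes and the HIF prolyl hydroxylases themselves are textbook targets.

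The number of peaks differed strongly between replicate lists. At 4% O2 the HIF1A lists held 42701 and 13655 peaks and the ARNT lists 24942 and 9920, for replicates 1 and 2. At 20% O2 the HIF1A lists held 5393 and 13386 peaks and the ARNT lists 7252 and 1808. The larger HIF1A list was thus replicate 1 at 4% O2 and replicate 2 at 20% O2. The files hold no read counts, so depth is unknown and its part in these numbers was not tested. HIF1A replicate 2 entries are single positions of 1 bp, whereas the other 6 lists hold intervals.

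Among the HIF1A regions at 4% O2, 5745 overlapped an ARNT region at 4% O2, and 381 of these also overlapped an ARNT region at 20% O2. The remaining 5364 co-bound hypoxic regions comprised the 1700 sites inside genes, 2318 within 1 kb of a gene end and 1346 between genes. Inside genes there were also 2739 HIF1A regions at 4% O2 without an ARNT region, and 95 co-bound regions with ARNT at both oxygen levels. The 2739, called regions without ARNT below, lacked a reproducible ARNT region at 4% O2 but not every ARNT peak. In the ARNT lists at 4% O2, 1987 of them had a peak in replicate 1 and 280 in replicate 2.

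The sequences below are windows around annotated transcription starts that intragenic sites overlapped. They are shown because some sites lay at a start inside the host gene, where a sequence can be read; letters of the sites elsewhere were not used here. Each window runs from 250 bases before to 50 bases after a start (RefSeq, GRCm38.p6, the same build as mm10) and is written 5′ to 3′ on the strand of the gene. Capitals mark the hypoxia response element cores ACGTG and GCGTG on either strand, so that a core on the opposite strand reads CACGT or CACGC. The first 5 are the highest-ranked sites whose HIF1A replicate 2 position at 4% O2 fell inside the window, and Car12 is the highest-ranked site whose window held no core. At Car12 the HIF1A position lay 65 bp after the start and so outside the window, and the letters at that position were not searched.
Aldoa, mm10 chr7:126799205-126799504, minus strand: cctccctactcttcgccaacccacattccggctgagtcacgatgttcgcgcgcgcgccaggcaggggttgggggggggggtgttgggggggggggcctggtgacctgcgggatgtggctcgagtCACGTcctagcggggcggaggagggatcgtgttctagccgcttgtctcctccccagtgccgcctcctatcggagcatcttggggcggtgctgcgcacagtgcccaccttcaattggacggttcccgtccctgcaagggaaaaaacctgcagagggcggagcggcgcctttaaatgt
Ldha, mm10 chr7:46845554-46845853, plus strand: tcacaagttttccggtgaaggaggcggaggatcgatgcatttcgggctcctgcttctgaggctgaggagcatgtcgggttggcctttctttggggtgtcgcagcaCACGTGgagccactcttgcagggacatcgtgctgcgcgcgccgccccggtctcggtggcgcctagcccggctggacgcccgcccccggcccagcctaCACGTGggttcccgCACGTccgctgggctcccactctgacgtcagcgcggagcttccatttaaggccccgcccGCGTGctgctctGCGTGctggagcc
Rnf126, mm10 chr10:79766903-79767202, minus strand: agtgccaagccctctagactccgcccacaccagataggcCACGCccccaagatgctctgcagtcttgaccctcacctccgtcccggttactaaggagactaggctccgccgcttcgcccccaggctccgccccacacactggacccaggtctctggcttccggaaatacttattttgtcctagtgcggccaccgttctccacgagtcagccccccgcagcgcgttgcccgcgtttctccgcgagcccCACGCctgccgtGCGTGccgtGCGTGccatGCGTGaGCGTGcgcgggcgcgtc
Prkcz, mm10 chr4:155344700-155344999, minus strand: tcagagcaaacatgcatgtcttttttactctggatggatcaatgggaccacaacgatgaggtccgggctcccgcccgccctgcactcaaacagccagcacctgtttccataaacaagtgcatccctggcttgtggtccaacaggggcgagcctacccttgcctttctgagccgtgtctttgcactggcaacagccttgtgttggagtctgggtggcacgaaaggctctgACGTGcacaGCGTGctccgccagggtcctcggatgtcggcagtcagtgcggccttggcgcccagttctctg
Pcgf5, mm10 chr19:36409498-36409797, plus strand: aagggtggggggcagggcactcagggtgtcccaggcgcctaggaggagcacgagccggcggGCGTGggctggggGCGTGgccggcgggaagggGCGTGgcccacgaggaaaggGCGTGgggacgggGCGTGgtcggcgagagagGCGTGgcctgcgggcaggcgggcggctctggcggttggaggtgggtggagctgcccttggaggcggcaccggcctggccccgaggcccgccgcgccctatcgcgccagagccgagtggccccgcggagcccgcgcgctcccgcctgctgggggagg
Car12, mm10 chr9:66713436-66713735, plus strand: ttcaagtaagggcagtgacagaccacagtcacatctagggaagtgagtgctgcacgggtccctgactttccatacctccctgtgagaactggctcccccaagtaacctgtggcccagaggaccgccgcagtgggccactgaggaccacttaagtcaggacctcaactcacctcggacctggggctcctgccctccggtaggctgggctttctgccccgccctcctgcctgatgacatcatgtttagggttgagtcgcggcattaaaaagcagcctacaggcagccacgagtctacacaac
The Aldoa window held 1 core, and the HIF1A position lay 2 bp from it. Ldha, with 7 cores, had its HIF1A position 10 bp from the nearest, and its cores on opposite strands overlap in the palindrome CACGTG. In Rnf126 (6 cores) the distance was 7 bp and in Prkcz (2 cores) it was 2 bp. Pcgf5 differed, with 6 cores in a row on the same strand and the HIF1A position 55 bp from the nearest. The distance is counted from the HIF1A position to the middle base of a core.

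Members were ranked by the mean of their percentile ranks in the 4 lists at 4% O2, where 100 is the highest score of a list. The score is the authors' own value for each peak, on a scale that no header names, so scores of different lists were not compared with each other. The median percentile rank of the sites was 92.1 and 76.9 in the HIF1A lists at 4% O2 (replicates 1 and 2) and 78.2 and 65.7 in the ARNT lists at 4% O2. These medians follow from the choice of sites. The site regions had a median width of 334 bp (102 to 2642 bp). The HIF1A replicate 2 position lay a median of 27 bp from the centre of the ARNT replicate 1 peak and 26 bp from that of replicate 2. Overlap of HIF1A and ARNT was required of every site, so short distances follow in part from the choice. At co-bound hypoxic sites at gene ends the medians were 28 and 38 bp.

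**Figure D1:**
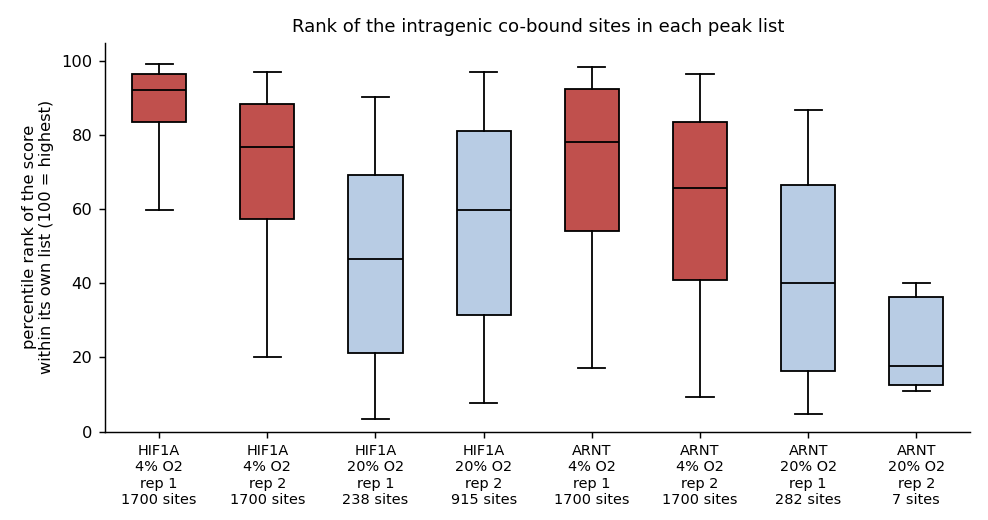
Percentile rank of the score, within its own list, of the peaks at the 1700 intragenic co-bound sites (vertical axis, 100 = highest), for each of the 8 lists (horizontal axis, with the number of sites that have a peak there). Boxes show the quartiles with the median as a line, and whiskers the 5th and 95th percentiles. In the HIF1A lists at 4% O2 the medians are 92.1 and 76.9; in the lists at 20% O2 a peak is present at 238 and 915 sites for HIF1A and at 282 and 7 sites for ARNT.

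The highest-ranked site of all lay in Ulk1, the kinase that starts autophagy, at chr5:110801722-110802574. Its HIF1A scores were 1015 and 1021 at 4% O2, against no peak in replicate 1 and 244 in replicate 2 at 20% O2. Its ARNT scores were 666 and 1204 at 4% O2, against 11.1 in replicate 1 and no peak in replicate 2 at 20% O2. HIF1A was thus among the top peaks of both lists at 4% O2 and of 1 list at 20% O2, where the Ulk1 peak had a percentile rank of 99.8. The fourth site, in Bnip3, a mitophagy receptor of the outer mitochondrial membrane, spanned 2555 bp at chr7:138906705-138909259. HIF1A scores at Bnip3 were 762 and 715 at 4% O2, against no peak and 95.5 at 20% O2. ARNT scores there were 425 and 1161 at 4% O2, against 4.20 and no peak at 20% O2. The Bnip3 site, like that of Ulk1, had HIF1A at 20% O2 in the replicate 2 list and not in the replicate 1 list.

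Glycolysis supplied Aldoa, Ldha and Slc2a3 to the 15 highest sites. Aldoa, which encodes aldolase A, had a site at chr7:126799010-126799883 with HIF1A scores of 708 and 819 at 4% O2, against no peak and 256 at 20% O2. ARNT scores at Aldoa were 312 and 1226 at 4% O2, against 11.8 and no peak at 20% O2. Ldha encodes the lactate dehydrogenase subunit that reduces pyruvate, and it held a site at chr7:46844479-46846262. Ldha had HIF1A scores of 698 and 670 at 4% O2, against no peak and 192 at 20% O2, and ARNT scores of 352 and 756 at 4% O2, against no ARNT peak in either list at 20% O2. Slc2a3, the high-affinity glucose transporter of neurons, was the one of these 3 with HIF1A peaks in both lists at 20% O2. Its site at chr6:122760730-122762213 had HIF1A scores of 821 and 479 at 4% O2, against 8.07 and 80.4 at 20% O2, and ARNT scores of 296 and 537 at 4% O2, against no peak and 4.39 at 20% O2. Slc2a3 held 3 further sites, at ranks 26, 725 and 848.

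The second-ranked site lay in Kdm6b, an oxygen-dependent JmjC demethylase of histone H3, at chr11:69418767-69419178. Kdm6b had HIF1A scores of 779 and 827 at 4% O2, against no peak and 186 at 20% O2, and ARNT scores of 339 and 1145 at 4% O2, against no ARNT peak at 20% O2. The same gene held 3 weaker sites, ranked 552, 861 and 884, and with 4 sites its density was 18.3 per 100 kb. Plod2, a lysyl hydroxylase that prepares collagen for cross-linking, had HIF1A scores of 497 and 460 at 4% O2, against no peak and 83.7 at 20% O2. ARNT scores at Plod2 were 276 and 589 at 4% O2, against no ARNT peak at 20% O2.

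The 15 highest sites also included those in Cdh22 (a cadherin), Unc13a (a priming factor of synaptic vesicles), Dnajc5 (a chaperone of synaptic vesicles), Mical2 (an actin-oxidising monooxygenase) and Specc1l (a protein that links actin and microtubules). Cdh22 had HIF1A scores of 1115 and 788 at 4% O2, against 11 and 149 at 20% O2, the highest replicate 1 value at 4% O2 among the 15. Unc13a had HIF1A scores of 660 and 454 at 4% O2, against no peak and 93.3 at 20% O2. Both sites had an ARNT peak in the replicate 1 list at 20% O2, with scores of 16.9 for Cdh22 and 12.4 for Unc13a. The other 3 genes of the 15 were Rara, the retinoic acid receptor alpha, Iba57, which takes part in mitochondrial iron-sulfur cluster assembly, and Mettl16, an RNA methyltransferase. Iba57 had HIF1A scores of 602 and 657 at 4% O2, against 15 and 83.9 at 20% O2. All 15 had a HIF1A peak in the replicate 2 list at 20% O2, and 3 of them, Cdh22, Iba57 and Slc2a3, had one in replicate 1 as well. Within the replicate 2 list these peaks had percentile ranks from 92.9 (Mettl16) to 99.9 (Aldoa), so they were high in that list too. In the replicate 1 list the ranks were 54.7 for Cdh22, 73.2 for Iba57 and 35.9 for Slc2a3.

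The highest-ranked sites without a HIF1A peak in either list at 20% O2 came lower. Among them were sites in Kcnab2 (an auxiliary subunit of potassium channels, rank 53), Pebp4 (rank 63), Gphn (gephyrin, the scaffold of inhibitory synapses, rank 68) and Dlg1 (a synaptic scaffold, rank 100). Kcnab2 had HIF1A scores of 216 and 264 and ARNT scores of 87.7 and 334 at 4% O2, and no peak in any list at 20% O2. Gphn had HIF1A scores of 225 and 158 and ARNT scores of 101 and 308 at 4% O2, and likewise no peak at 20% O2. Behind Cdh22, Iba57 and Slc2a3, the highest sites with HIF1A in both lists at 20% O2 lay in Fcho2, an endocytic adaptor, and Tec, a tyrosine kinase. Tec had HIF1A scores of 732 and 474 at 4% O2, against 12.2 and 82.1 at 20% O2.

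HIF1A at 20% O2 was the measure that the choice of sites left out. A HIF1A peak was present at 238 of the 1700 intragenic sites in the replicate 1 list (14%, Wilson 95% interval 12.4 to 15.7) and at 915 in the replicate 2 list (53.8%, 51.4 to 56.2). Over all 12586 HIF1A regions at 4% O2 the shares were 22.4% and 53.4%. Of the intragenic sites, 225 had a peak in both lists (13.2%, 11.7 to 14.9), against 21.2% of all HIF1A regions, 690 in the replicate 2 list alone, 13 in the replicate 1 list alone and 772 in neither (45.4%). The share in both lists rested on single lists: it was 24.0% without ARNT at 4% O2 replicate 2, 6.21% without ARNT at 20% O2 replicate 2, and 0.286% without HIF1A at 4% O2 replicate 1, where regions are 1 bp positions. At 735 sites (43.2%) none of the 4 lists at 20% O2 held a peak of either antibody. The replicate 2 share was close to that of all HIF1A regions, and the replicate 1 share lay below the share of all regions. The lower shares in replicate 1 and in both lists are not independent of the choice of sites. Regions with reproducible ARNT at 20% O2 were removed from the sites and not from all HIF1A regions.

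The comparison with co-bound hypoxic sites at gene ends ran in opposite directions in the 2 lists. In replicate 1 a HIF1A peak at 20% O2 was present at 14% of sites inside genes and at 5.44% of those at gene ends (4.58 to 6.43), a difference of 8.56 percentage points (6.70 to 10.5). In replicate 2 the shares were 53.8% inside genes and 59.0% at gene ends (57.0 to 61.0), a difference of -5.19 points (-8.29 to -2.09). With 2 lists no exact permutation test can give a p under 0.5, so no p is given, and the intervals cover counting of sites and not the spread between samples. The replicate 2 difference was 0.629 points without ARNT at 4% O2 replicate 2 (-1.77 to 3.03) and -1.68 points without HIF1A at 4% O2 replicate 2 (-4.54 to 1.18). Both intervals span 0, so the size and the direction of the replicate 2 difference rested on single lists. Without HIF1A at 4% O2 replicate 1 it was 0.135 points (-0.390 to 0.732), but regions are then 1 bp positions set against 1 bp positions, so both shares are near 0 by construction and the value says nothing of the direction. The replicate 1 difference was 3.31 points without ARNT at 20% O2 replicate 2, and 16.4 points without ARNT at 4% O2 replicate 2.

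Sites between genes were close to the intragenic sites in both lists, with shares of 14.4% and 53.1%. HIF1A regions inside genes without ARNT had a replicate 1 share of 34.2% (32.5 to 36.0) and a replicate 2 share of 52.4% (50.5 to 54.2). In replicate 2 the intervals of this class and the co-bound sites overlapped. The replicate 1 gap is not independent of the choice of sites: regions with reproducible ARNT at 20% O2 were removed from the co-bound sites and not from this class, in which 30.1% had a peak in the ARNT replicate 1 list at 20% O2, compared with 16.6% of the co-bound sites. At the 95 intragenic regions that also had ARNT at 20% O2, HIF1A at 20% O2 was present at 80.0% in replicate 1 and 92.6% in replicate 2.

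**Figure D2:**
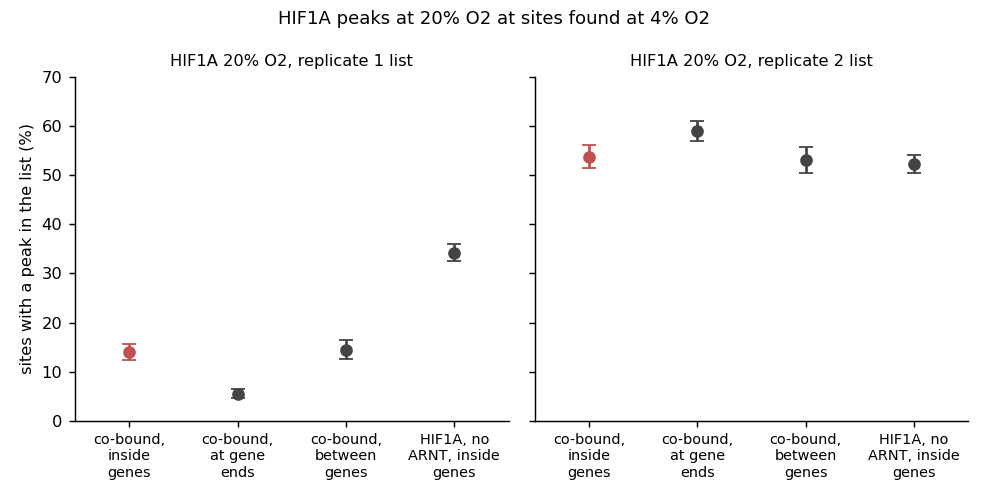
Percent of sites found at 4% O2 that have a HIF1A peak at 20% O2 (vertical axis) in the replicate 1 list (left) and the replicate 2 list (right), for 4 classes of sites; bars are Wilson 95% intervals. In replicate 1 the intragenic co-bound sites lie at 14%, above co-bound sites at gene ends (5.44%) and below HIF1A regions without reproducible ARNT (34.2%). In replicate 2 the classes lie between 52.4% and 59.0%.

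When the 1700 sites were ordered by mean rank and split into 4 equal groups of 425, the replicate 2 shares were 78.4%, 54.6%, 46.4% and 36.0%, starting with the highest-ranked group. The replicate 1 shares of the same groups were 14.6%, 14.4%, 17.6% (14.3 to 21.6) and 9.41% (6.99 to 12.6), with the lowest value in the lowest-ranked group. At gene ends, over the same rank limits, the replicate 2 shares were 88.3%, 64.5%, 49.8% and 38.0%, and the replicate 1 shares 7.38% (5.55 to 9.77), 5.78%, 5.37% and 3.64% (2.49 to 5.27).

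ARNT at 20% O2 took part in the choice of sites, so its overlap with HIF1A at 20% O2 is a description. Of the 238 sites with HIF1A in the replicate 1 list at 20% O2, 143 (60.1%) also had a peak in the ARNT replicate 1 list at 20% O2. Among the 1462 other sites, 139 (9.51%) had one, and among the 690 sites with HIF1A at 20% O2 in replicate 2 alone, 102 (14.8%) had one. Both replicate 1 lists at 20% O2 were called against the same input, and their samples were read on the same lane, per the names and headers of the lists; the part of that in the overlap was not tested. Where sites with an ARNT peak in either list at 20% O2 were left out, the share of sites with HIF1A in both lists at 20% O2 was 6.02%, against 13.2% with them.

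Although every site lay more than 1 kb from the ends of genes, some lay at a transcription start inside one. The centres of 238 of the 1664 intragenic sites with start windows on their chromosome (14.3%, 12.7 to 16.1) were within 1 kb of an annotated start, and for 236 of these the start belonged to the host gene itself. The 36 sites on chromosome 18 were left out. For HIF1A regions inside genes without ARNT the share was 6.19% (5.33 to 7.17), and for co-bound sites at gene ends it was 76.4% (74.6 to 78.1). The intervals of the co-bound sites and of the regions without ARNT did not overlap. For the 95 intragenic regions with ARNT at both oxygen levels the share was 11.7% (6.66 to 19.8), which overlaps both. Of the 1272 host genes 1004 had a start window and 327 had at least 2, so starts were searched in part of the genes only. Examples among the named genes were Aldoa, Ldha, Car12, Kcnab2, Mxi1 (a partner of MAX that opposes MYC), Syt1 (the calcium sensor of synaptic vesicles) and Hif1a itself, each with a site within 1 kb of a start of its own.

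Sites near starts differed from the rest in the HIF1A replicate 1 list at 20% O2. In that list 5.46% of the 238 sites near starts had a peak (3.22 to 9.12), against 15.6% of the 1426 sites farther away (13.8 to 17.5). In replicate 2 the shares were 54.2% and 54.3%. The low replicate 1 share at internal starts was close to the 5.44% at gene ends.

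Start windows overlapped by intragenic sites were rich in hypoxia response element cores. A core on either strand was found in 131 of 156 such windows (84.0%, 77.4 to 88.9), compared with 44.0% of all 32585 start windows. The share was 87.7% at gene ends and 72.4% (62.9 to 80.3) for HIF1A regions inside genes without ARNT. The intervals of the sites and of the regions without ARNT overlapped. The letters hold a CpG, and the windows of the sites held a median of 22 CpG dinucleotides against 7 in all windows. Within classes of CpG number the shares were 71.4% (5 of 7) against 17.2% of all windows with 0 to 4 CpG. They were 72.7% against 46.0% with 5 to 14, and 87.8% against 71.4% with 15 to 60. The last class held 115 site windows and was wide, and CpG numbers were not matched within it. The E-box CACGTG, which holds a core, was present in 13.5% of the site windows and 7.20% of all windows. The AP-1 letters TGACTCA or TGAGTCA were found in 8.97% against 5.23%, and the CRE letters TGACGTCA in 3.85% against 1.80% of all windows, with overlapping intervals for both. The intervals of these E-box shares did not overlap, but classes of CpG number were not compared for the E-box. At gene ends the E-box share was 19.2%, and for HIF1A regions inside genes without ARNT it was 14.3%. All motifs were searched on both strands, and a match describes letters in a window, not a binding site.

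**Figure D3:**
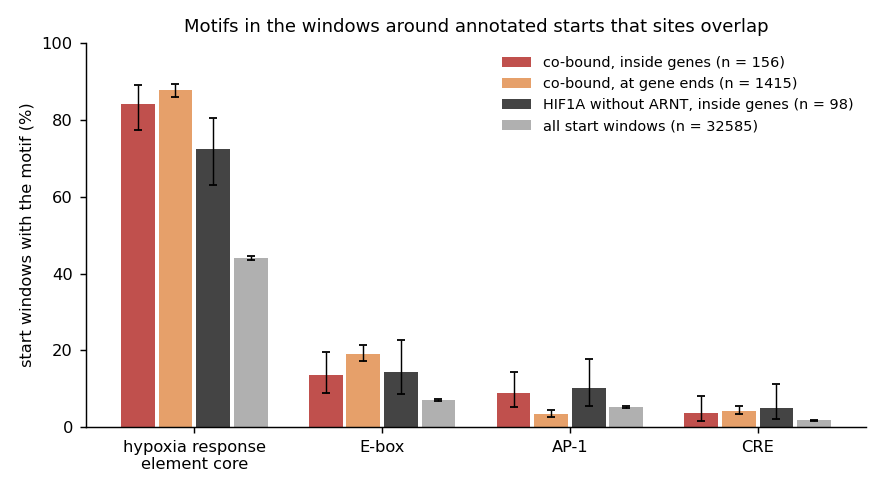
Percent of 300-base start windows that hold a motif (vertical axis), for windows overlapped by intragenic co-bound sites, by co-bound sites at gene ends and by HIF1A regions inside genes without ARNT, and for all start windows; bars are Wilson 95% intervals. The core of the hypoxia response element is in 84.0% of the windows of intragenic co-bound sites and in 44.0% of all windows.

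The distance from HIF1A positions to the cores was measured in the start windows. In the 111 cases where the HIF1A replicate 2 position fell inside a window with a core, its median distance to the nearest core was 14 bp (quartiles 5 and 32), and 79 positions (71.2%, 62.1 to 78.8) were within 25 bp. At gene ends the median was 17 bp with 62.9% within 25 bp (59.9 to 65.8), and for HIF1A regions inside genes without ARNT it was 30 bp with 43.3% (31.6 to 55.9). The intragenic co-bound sites and those at gene ends overlapped in their intervals, whereas the sites without ARNT lay lower. Distances of randomly placed positions were not computed, and the classes were not matched for the number of cores per window. Whether HIF1A positions lay nearer to cores than other positions of the windows was therefore not tested.

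Strand and a single host were known for 1311 sites, of which 57.2% (54.5 to 59.9) were nearer the 5′ end, compared with 54.6% (52.5 to 56.7) of HIF1A regions without ARNT, an interval that overlaps it. Of the 10 equal stretches of the gene span, the one at the 5′ end held 16.8% of them (14.9 to 18.9), compared with 11.1% of HIF1A regions without ARNT (9.89 to 12.5), and the one at the 3′ end held 6.10% and 7.34%. With sites within 1 kb of an annotated start left out, 51.3% of the co-bound sites were nearer the 5′ end, compared with 52.3% of the regions without ARNT. In genes of up to 100 kb 63.0% of the co-bound sites and 60.4% of the regions without ARNT were nearer the 5′ end, and in longer genes 49.7% and 50.1%. In genes of up to 100 kb, with sites near starts left out, 54.9% of the co-bound sites (50.8 to 59.1) were nearer the 5′ end. For the regions without ARNT the share was 56.5% (53.1 to 59.8), and the intervals overlapped. Sites lay a median of 27412 bp from the 5′ end.

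**Figure D4:**
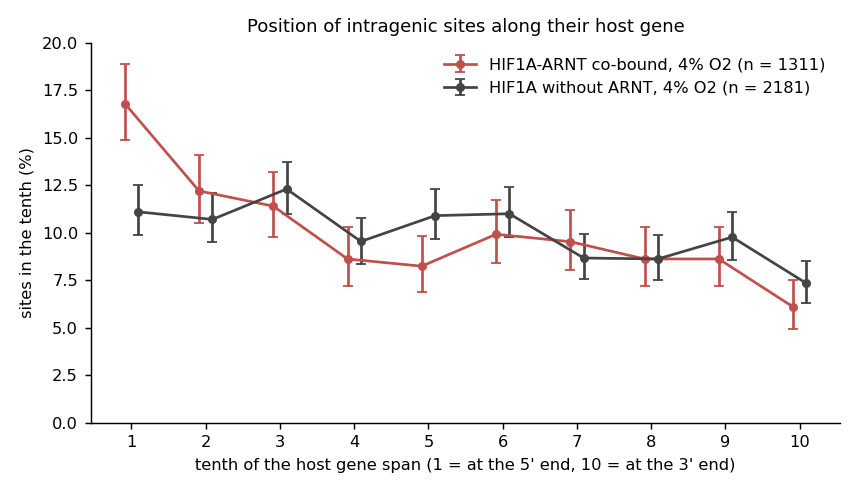
Percent of sites (vertical axis) in each of 10 equal stretches of the host gene from the 5′ end (1) to the 3′ end (10), for intragenic co-bound sites and for HIF1A regions inside genes without ARNT; bars are Wilson 95% intervals. The stretch at the 5′ end holds 16.8% of the co-bound sites and 11.1% of the regions without reproducible ARNT.

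The 1700 sites fell in 1272 of 21627 protein-coding genes (5.88%). The number of such genes was 2020 without ARNT at 4% O2 replicate 2, 800 with the peaks above the median score of each list and 266 with an equal number of highest peaks per list. A single site was held by 962 genes, 2 by 225 and 3 or more by 85, and 18 sites lay in more than 1 gene. Host genes were long, with a median of 72.3 kb (quartiles 29.4 and 157 kb) against 17.3 kb over all protein-coding genes, and a long gene offers more sequence in which a site can lie. The share of genes with a site was 0.814% up to 10 kb, 4.09% from 10 to 30 kb, 8.99% from 30 to 100 kb, 19.1% from 100 to 300 kb and 24.1% above. Per megabase of gene, however, the number was 2.19, 2.55, 2.16, 1.73 and 0.710 in the same classes, with the lowest value in the longest genes. The lengths include the stretches within 1 kb of gene ends, where no site could lie. Such stretches are a larger part of short genes, so the values of short genes are lowered most. A co-bound hypoxic site within 1 kb of an end was present at 14.7% of the host genes and at 10.1% of the other genes, against 10.3% of all protein-coding genes.

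The genes with the most sites were Gse1 with 8, Rara and Zfp469 with 7 each, and Tbc1d16 and Frmd4a with 6 each. Rara stood out among these 5 for its density, with 14.8 sites per 100 kb in a gene of 47143 bp, compared with 2.27 in Gse1, 3.05 in Zfp469, 7.02 in Tbc1d16 and 1.01 in Frmd4a. The strongest Rara site, at chr11:98930687-98931902, had HIF1A scores of 694 and 606 at 4% O2, against no peak and 76.7 at 20% O2. ARNT scores there were 358 and 621 at 4% O2, against no ARNT peak at 20% O2. None of these 5 genes had a co-bound hypoxic site at an end. Neighbouring sites of 1 gene formed 442 pairs with a median gap of 17574 bp, and 56 pairs were within 1000 bp of each other. At 28 sites (1.65%) the ARNT region also overlapped another HIF1A region, so the ARNT values of such sites are shared. This applied to the second sites of Ulk1 (rank 1270) and Ldha (rank 550) and to the site of P4ha1 (rank 241).

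The gene lists were chosen with earlier results of these data known, so their shares are a description and support nothing. An intragenic site was held by 5.88% of all protein-coding genes and by 4.09% of those of 10 to 30 kb. In the list of mitophagy, autophagy and mitochondrial adaptation genes (median length 16.4 kb), 6 of 14 (42.9%) held one. Beside Ulk1 and Bnip3 these were Fam162a, a hypoxia-induced mitochondrial protein (best rank 29), Mxi1 (rank 56), Ndufa4l2, a mitochondrial protein related to a respiratory chain subunit (rank 560), and Lonp1, the mitochondrial matrix protease (rank 1399). Mxi1 held 4 sites and Fam162a 2. Fam162a was the one with HIF1A in both lists at 20% O2 at its best site, with scores of 411 and 299 at 4% O2, against 19.7 and 39.1 at 20% O2. In this list 11 of the 14 genes (78.6%) had a co-bound site at an end, against 10.3% of all protein-coding genes. Of the 26 glycolysis genes 6 (23.1%) held a site, against 5.88% of all protein-coding genes and 4.09% of those of 10 to 30 kb (list median 25.7 kb). The glycolysis genes held 14 sites in all. Besides those above, Hk1, the hexokinase of brain, held 4 (best rank 713), Pfkfb3, which makes the activator of phosphofructokinase, held 2 (best rank 510), and Pfkp, the platelet-type phosphofructokinase, held 1 (rank 371).

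Genes of the oxygen-sensing pathway itself held sites in 4 of 16 cases (25%), against 5.88% of all protein-coding genes and 4.09% of those of 10 to 30 kb, the class of the list's median length of 28.5 kb. Epas1, which encodes the HIF2A subunit, held 2, the better at rank 54, with HIF1A scores of 160 and 218 at 4% O2, against no peak and 23.4 at 20% O2. Egln3, a HIF prolyl hydroxylase, had HIF1A scores of 162 and 58.7 at 4% O2, against 8.91 and 14.9 at 20% O2. Hif3a, a HIF paralogue that can oppose the other subunits, had a site at rank 311. Hif1a held a weaker site at rank 1166, within 167 bp of an annotated start, with HIF1A scores of 30.1 and 18.5 at 4% O2, against no peak in either list at 20% O2. Sites in these 4 genes thus ranged from near the top to the lower part of the ranking.

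Of 22 genes in the list of JmjC and TET demethylases, enzymes that use oxygen as a substrate, 5 (22.7%) held a site, against 5.88% of all protein-coding genes and 8.99% of those of 30 to 100 kb (list median 79.1 kb). They were Kdm6b, Kdm2a, Jarid2, Tet3 and Kdm4b. After Kdm6b the best ranks were 328 for Kdm2a and 917 for Jarid2, which lacks demethylase activity. The Kdm2a site lay in the overlap of Kdm2a with 9430078G10Rik and cannot be given to either gene, although it is counted here. Among 15 collagen and matrix enzyme genes 2 (13.3%) held a site, Plod2 and P4ha1, a collagen prolyl hydroxylase. The share was 5.88% over all protein-coding genes and 4.09% over those of 10 to 30 kb (list median 27.0 kb). Among 19 genes of angiogenesis, pH and iron only Car12 (5.26%), a carbonic anhydrase of the cell surface, held sites. That share was near the 5.88% of all protein-coding genes and the 4.09% of those of 10 to 30 kb (list median 19.7 kb). The 2 Car12 sites ranked 33 and 52. Of that list 6 genes (31.6%) had a co-bound site at an end, against 10.3% of all protein-coding genes. The better Car12 site had HIF1A scores of 481 and 316 at 4% O2, against no peak and 46.6 at 20% O2.

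Circadian clock genes held a site in 5 of 21 cases (23.8%), against 5.88% of all protein-coding genes and 8.99% of those of 30 to 100 kb, which include the list's median of 35.1 kb. Dbp, an output transcription factor of the clock, ranked highest at 123, with HIF1A scores of 246 and 139 at 4% O2, against no peak and 24.5 at 20% O2. Nr1d1, a repressor of Arntl, followed at rank 338, then Nfil3 at 639, Arntl at 1431 and Per1 at 1512. The product of Arntl is related to ARNT and binds E-boxes together with CLOCK. Of 18 genes around MYC, MAX and the cell cycle 3 (16.7%) held sites: Cdkn1a, the cyclin-dependent kinase inhibitor, with 3, Mnt, a repressor that pairs with MAX, with 2, and Cdk6 with 1. The share was 5.88% over all protein-coding genes and 4.09% over those of 10 to 30 kb (list median 10.5 kb). Growth factor and insulin signalling had 3 of 26 genes with a site (11.5%), namely Insr, Rptor and Deptor, a share near the 8.99% of genes of 30 to 100 kb (list median 87.6 kb).

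Of 23 sympathoadrenal and neuroblastoma genes 6 held a site (26.1%), against 5.88% of all protein-coding genes and 4.09% of those of 10 to 30 kb (list median 17.0 kb). Among them were Ddc and Dbh, enzymes of catecholamine synthesis, Alk, a receptor tyrosine kinase of neuroblastoma, and the neurotrophin receptor genes Ntrk3 and Ngfr. None of them ranked high: the best was Dbh at 527, with HIF1A scores of 52.3 and 32.8 at 4% O2, against no peak and 8.50 at 20% O2. Ddc held 3 sites, and its best, at rank 784, had HIF1A scores of 62.1 and 34.0 at 4% O2, against 24.7 and 20.9 at 20% O2. Axon guidance and adhesion genes held a site in 9 of 37 cases (24.3%), led by Sema4d at rank 134 and Unc5b, a netrin receptor, at 217. Synapse and ion channel genes did so in 11 of 36 cases (30.6%), led by Kcnab2, Gphn, Nrxn2 (a presynaptic adhesion molecule, rank 108) and the sodium channel gene Scn8a (rank 127). The genes of these neuronal lists are long, with list medians of 278 kb for axon guidance and 349 kb for synapse and channels, lengths at which 19.1% to 24.1% of all genes held a site. Genes of nitric oxide signalling held sites in 3 of 20 cases (15%): Ass1, an enzyme that makes arginine, Slc7a1, an arginine transporter, and Dlg4, the scaffold that anchors NOS1 at synapses. Their best ranks were 796, 669 and 929. For comparison, 5.88% of all protein-coding genes and 8.99% of those of 30 to 100 kb (list median 56.6 kb) held a site. Among 32 genes of other tissues, with a median length of 9.62 kb, none held a site. Of all genes of up to 10 kb only 0.814% held one, so this absence says little.

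**Figure D5:**
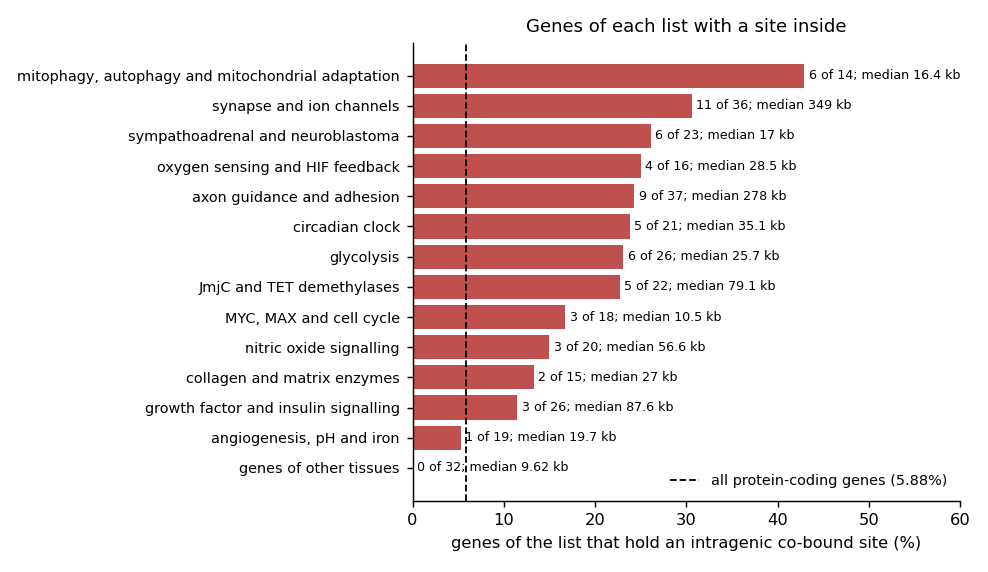
Percent of the genes of each list that hold an intragenic co-bound site (horizontal axis), with the number of genes and the median gene length of the list beside each bar; the dashed line marks the 5.88% of all protein-coding genes. Mitophagy and mitochondrial genes stand at 42.9% with short genes, and the synapse and axon guidance lists at 30.6% and 24.3% with long ones. The lists were chosen with earlier results of these data known.

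Mean percentile ranks of the 5 nearest sites on each side overlapped across the limit of 1 kb. Just inside it, a site in Mthfd1l, a mitochondrial enzyme of folate metabolism, lay 1002 bp from a gene end and had HIF1A scores of 377 and 352 at 4% O2, against no peak and 50.6 at 20% O2. The next 4, in Obsl1, Acaa2, Trim45 and Catsperd, lay 1017 to 1023 bp away, with mean percentile ranks of 53.9 to 92.0. Just outside it, at 984 to 997 bp, were regions in Spred2, Hnrnpu, Gbe1, Slc41a2 and Cd151. Gbe1, the glycogen branching enzyme, at 993 bp had HIF1A scores of 407 and 367 at 4% O2, against no peak and 43.0 at 20% O2. The 5 outside had mean percentile ranks of 56.5 to 99.1.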

How the data were processed

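Chromatin immunoprecipitation was done with anti-HIF1A and anti-ARNT antibodies in N1E115 cells, and libraries were made with a ThruPLEX kit, per the labels' protocols. BWA, Picard and MACS2 were used with build mm10, per the submitters' processing notes. The version and settings of each are not given in the sources used. The authors called peaks separately for each ChIP sample and deposited 1 list per sample with a position and a score for each peak; no header names the scale of the score. Both HIF1A replicate 2 samples and their inputs combined a pair of sequencing runs, per the labels. The lists hold no read counts, so depth and the error of a single peak are unknown.

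Lists were joined here with Python 3.11.15, numpy 2.4.6, pandas 2.3.3 and scipy 1.17.1, with overlaps of at least 1 bp and gene spans of RefSeq GRCm38.p6 on chromosomes 1 to 19 and X. Samples were grouped by their titles. Each share has a Wilson 95% interval that covers counting error alone. No test was run, since a group has 2 lists. The counting was checked on simulated lists with planted sites. The sites and gene lists were chosen with earlier results of these data known. Named sites were the 15 highest by mean percentile rank at 4% O2, the 5 highest without and with HIF1A in both lists at 20% O2, the 5 nearest to the 1 kb limit on either side, the 5 genes with most sites, and list genes that hold a site. Of those list genes some are given only in the counts, and some genes that the rule takes are left out of the text. Sequences came from RefSeq start windows, which were absent for chromosome 18; motifs were searched in these windows in place of windows around site centres. Alternatives were a stricter overlap, higher-scoring peaks, wider positions, other gene-end limits, a stricter absence of ARNT at 20% O2, and leaving out each list in turn.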

Additional observations from a re-analysis of the deposited data

How the results depend on the processing

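No paired analysis was possible because the results are counts and shares that come from no test, each given within its own list. The number of intragenic sites was 946 with the peaks above the median score of each list, 279 with the 1808 highest peaks of each list and 1133 with sites more than 5 kb from gene ends, and 1418 to 3429 when 1 list was left out. The share with HIF1A in both lists at 20% O2 was 6.55% and 5.38% under the first 2 settings, 6.02% without sites that had any ARNT peak at 20% O2, and 0.286% to 24.0% when 1 list was left out. The lowest value came without HIF1A at 4% O2 replicate 1, where regions are 1 bp positions, and the highest without ARNT at 4% O2 replicate 2; without ARNT at 20% O2 replicate 2 it was 6.21%. The difference between sites inside genes and at gene ends was 4.00, 3.22 and 3.21 points for replicate 1 under the same 3 settings, and 3.31 to 16.4 with 1 list left out. For replicate 2 it was -10.4 and -19.7 points under the first 2 settings, and -7.33 to 0.629 with 1 list left out, with 0.629 (-1.77 to 3.03) without ARNT at 4% O2 replicate 2, where the cause was not tested, and 0.135 (-0.390 to 0.732) without HIF1A at 4% O2 replicate 1, where 1 bp regions fix both shares near 0. Both intervals span 0. The share of sites at annotated starts was 16.6% with ends of protein-coding genes only, 8.34% beyond 5 kb and 9.50% to 15.3% with 1 list left out. Leaving out sites near starts, chosen after seeing the data, gave 14.8% with HIF1A in both lists at 20% O2. Without either HIF1A list at 20% O2 the share in both lists could not be given. Unknown depth limits every statement on absence of a peak.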
